A study of Mus musculus with 36 samples.

Results

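The IL-27 receptor subunit *Il27ra* was described together with the genes that carry its signal, in LT-HSC and HPC-1 of atherosclerotic mice. The 8 genes were *Il27ra*, its partner chain *Il6st* (gp130), the receptor-bound kinases *Jak1*, *Jak2* and *Tyk2*, the transcription factor *Stat3* and the feedback inhibitors *Socs1* and *Socs3*. They were chosen by their known roles in gp130 signaling, and they were 8 of the 38887 genes in the count table.

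IL-27 is a cytokine made of the subunits p28 (*Il27*) and *Ebi3*, and it binds a receptor in which IL-27Rα pairs with gp130. Both chains bind Janus kinases, which phosphorylate STAT proteins, STAT3 among them, and these enter the nucleus and switch on target genes, among them those for SOCS proteins that damp the receptor. gp130 also serves IL-6, IL-11, oncostatin M and LIF, whereas IL-27Rα is used by IL-27, and in the hematopoietic system IL-27 acts on stem cells as well as on lymphocytes.

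RNA was sequenced in 36 samples of 5000 cells each, sorted by FACS from the BM of mice given Ang II, which raises blood pressure and provokes aortic aneurysm, or its vehicle. Every mouse lacked *Apoe* and ate WD for 12 weeks from 8 weeks of age, with Ang II or PBS infused during the last 2 weeks. LT-HSC were Lin-Sca-1+c-Kit+CD150+CD48- cells and HPC-1 were Lin-Sca-1+c-Kit+CD150-CD48+ cells, named ST-HSC in the sample labels. The labels gave no sex and no batch, and called the *Apoe*-/- mice WT. They also did not say which libraries came from the same mouse, and the main tests took all libraries as independent. In LT-HSC the PBS groups were *Apoe*-/- (1 library), *Apoe*-/-*Il27ra*+/- (3) and *Apoe*-/-*Il27ra*-/- (3), and the Ang II groups were *Apoe*-/- (2), *Apoe*-/-*Il27ra*+/- (4) and *Apoe*-/-*Il27ra*-/- (4). In HPC-1 those given PBS were *Apoe*-/- (2 libraries), *Apoe*-/-*Il27ra*+/- (3) and *Apoe*-/-*Il27ra*-/- (3), and those given Ang II were *Apoe*-/- (3), *Apoe*-/-*Il27ra*+/- (4) and *Apoe*-/-*Il27ra*-/- (4). *Apoe*-/-*Il27ra*+/- mice carried 1 intact copy of *Il27ra* and *Apoe*-/-*Il27ra*-/- mice none, in every cell of the body.

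Total counts ran from 1980283 to 6861078 per library (median 3139364), with a median of 2560838 in the 17 LT-HSC libraries and 3254832 in the 19 HPC-1 libraries. In LT-HSC with Ang II they were 2244419 and 2077699 in *Apoe*-/-, 2183648 to 6861078 in *Apoe*-/-*Il27ra*+/- and 2320769 to 6618618 in *Apoe*-/-*Il27ra*-/-. Levels are given below as CPM, which are counts per gene scaled to library size by the trimmed mean of M values over all 36 libraries, in the order of the replicates. A count of 0 allows a level of up to 3 counts, which is stated in CPM where it arises; such limits cover counting error only, whereas the p-values rest on the spread between these samples. Because the samples were bulk RNA from sorted cells, fewer cells of a type and less RNA per cell cannot be told apart.

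The sorted cells carried the markers of their gates. The 7 LT-HSC markers, with *Meis1* the most abundant, summed to 496 to 2364 CPM in LT-HSC (median 1875) and to 275 to 626 CPM in HPC-1 (median 417). The 7 HPC-1 markers, with *Mpo* the most abundant, summed to 4043 to 7766 CPM in HPC-1 (median 6494) and had a median of 166 CPM in LT-HSC. LT-HSC thus ranked above HPC-1 for the LT-HSC list in all but 1 library, and the HPC-1 list was higher in HPC-1 in all but 1 library.

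Several libraries stood apart. The LT-HSC sample PBS *Apoe*-/-*Il27ra*-/- replicate 2 had the lowest LT-HSC marker sum, 496 CPM, and the highest HPC-1 marker sum of the LT-HSC libraries, 5343 CPM, of which *Mpo* gave 3522 CPM. The LT-HSC sample Ang II *Apoe*-/-*Il27ra*-/- replicate 2 had 7076 CPM over the 8 granulocyte markers (*S100a9* at 2182 CPM), 1291 CPM over the 6 erythroid markers (*Hbb-bs* at 711 CPM) and 1658 CPM over the HPC-1 markers. The medians of those granulocyte and erythroid sums in LT-HSC were 50.4 and 51.0 CPM. The LT-HSC sample PBS *Apoe*-/-*Il27ra*-/- replicate 3 also had raised granulocyte and erythroid sums, 1249 and 1185 CPM. The lone LT-HSC sample PBS *Apoe*-/- had *Il27ra* at 17.1 CPM, next to the receptor-deficient mice, and the LT-HSC sample PBS *Apoe*-/-*Il27ra*+/- replicate 2 had counts for 26187 genes where the other 35 libraries had 13053 to 22742. PBS *Apoe*-/- replicate 1, PBS *Apoe*-/-*Il27ra*-/- replicate 2 and Ang II *Apoe*-/-*Il27ra*-/- replicate 2 were the 3 LT-HSC libraries left out together as an alternative.

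A list of 16 markers of intestinal epithelium, of which *Fabp1* was at 0 in every library, separated the *Apoe*-/- LT-HSC libraries from the rest. The list summed to 492 and 532 CPM in Ang II *Apoe*-/- and 325 CPM in PBS *Apoe*-/-, with *Dmbt1* at 124 and 193 CPM in the Ang II libraries and *Krt18* at 101 CPM in the PBS library, whereas the remaining 14 of LT-HSC had 34.8 to 127 CPM. In HPC-1 it summed to 100.3 and 85.5 CPM in PBS *Apoe*-/- and 117, 109 and 325 CPM in Ang II *Apoe*-/-, and to 28.5 to 91.7 CPM in the other 2 genotypes. Sex also followed genotype in part: *Xist* was below the Y-linked genes in all 8 *Apoe*-/- libraries, and above them in 4 of 7 *Apoe*-/-*Il27ra*+/- and 4 of 7 *Apoe*-/-*Il27ra*-/- libraries of LT-HSC and in 2 of 7 and 2 of 7 of HPC-1. Sex was therefore unequal in the comparisons with *Apoe*-/- and between the cell types, where it was tried as a covariate, and the part of the intestinal RNA in any result was not tested. Depth went with sex, at 2560838 to 6861078 counts in libraries with *Xist* above the Y-linked genes and 1980283 to 3722262 in the others. The part of depth in any result was not tested.

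Between the cell types, *Il27ra*, *Jak2*, *Jak1*, *Stat3* and *Tyk2* RNA was higher in LT-HSC, *Il6st* RNA was lower, and *Socs1* and *Socs3* did not pass the test. Between genotypes, *Il27ra* was lower in LT-HSC of Ang II *Apoe*-/-*Il27ra*-/- mice than of Ang II *Apoe*-/- mice, and none of the other 7 genes was called in any of the 13 genotype comparisons. Between Ang II and PBS, none of the 8 genes was called. A gene was called at an adjusted p under 0.05 in edgeR, with p-values adjusted by Benjamini-Hochberg over all genes tested, and all 8 genes passed the filter on low counts in each model.

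**Figure D1:**
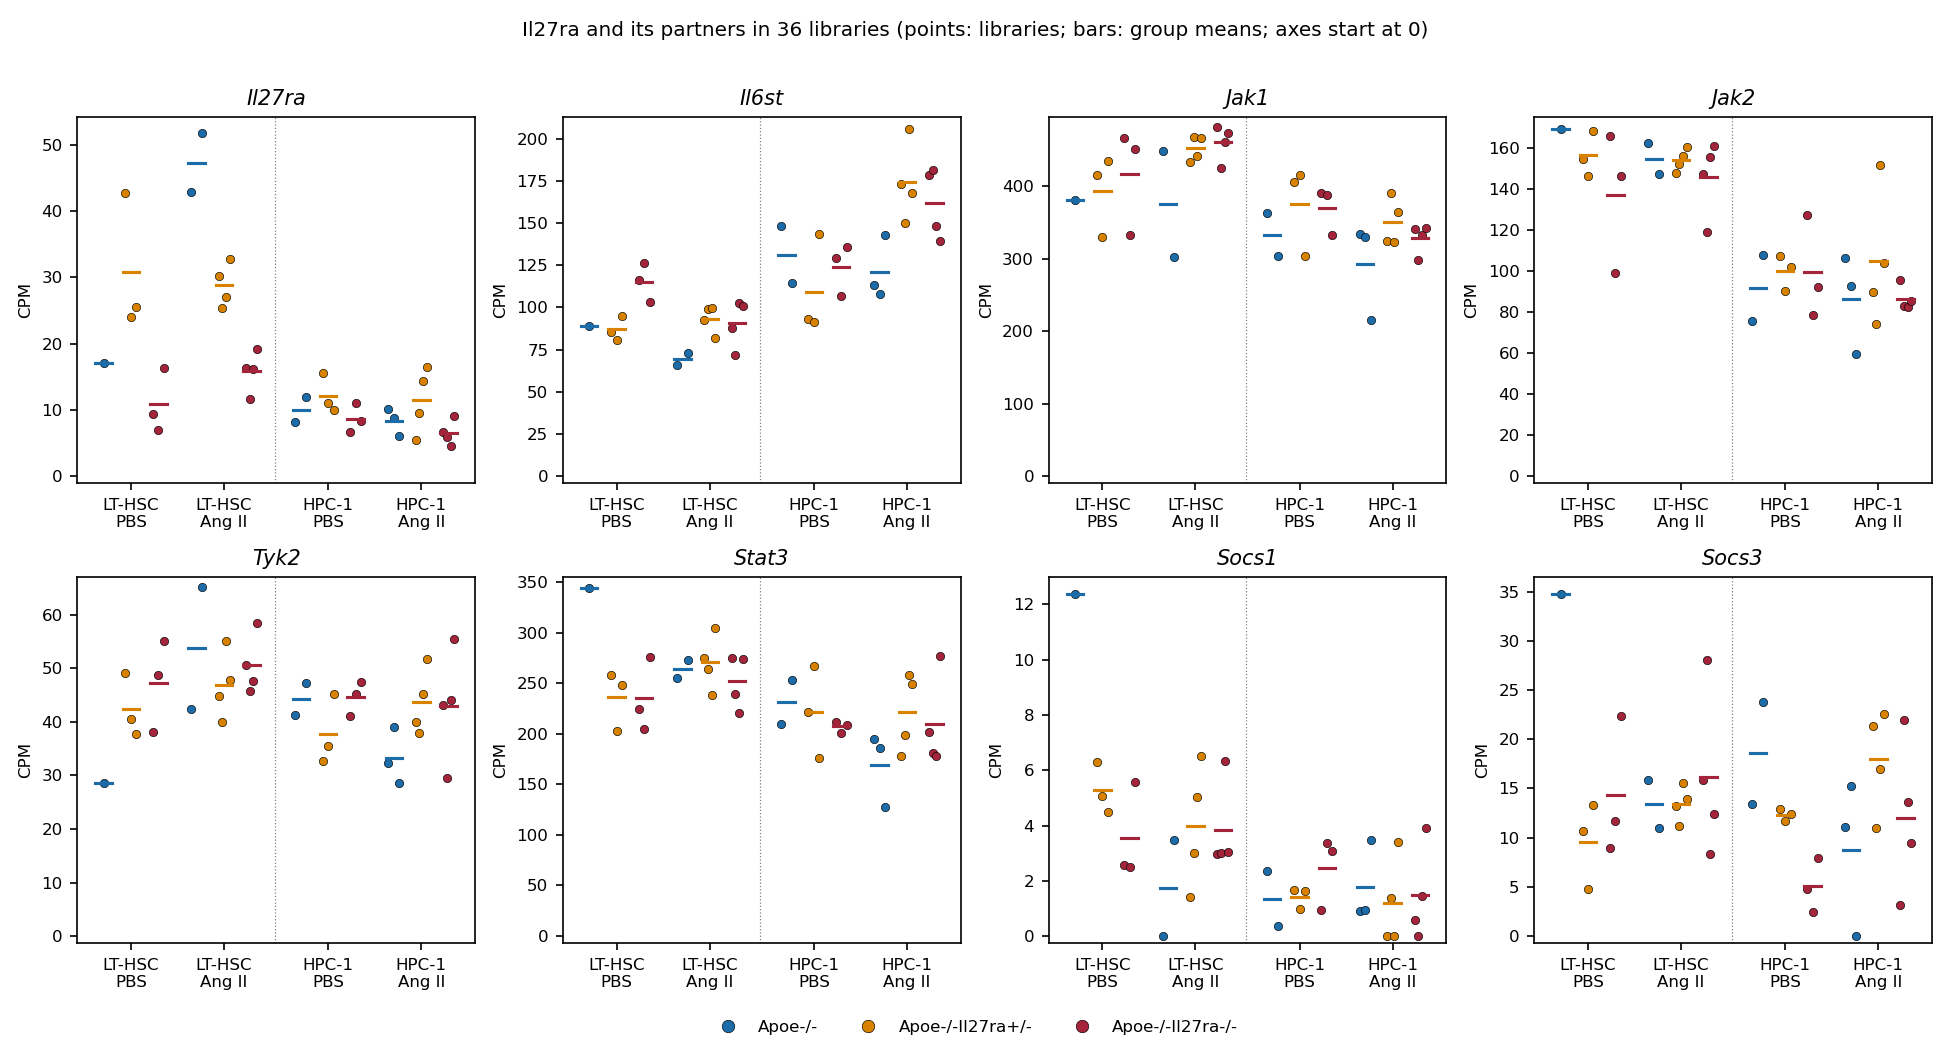
Levels of the 8 genes in CPM on axes that start at 0; each point is 1 library, bars are group means, and the groups are cell type and agent, coloured by genotype. *Il27ra* stands highest in LT-HSC of Ang II *Apoe*-/- mice, *Il6st* stands higher in HPC-1, and *Socs1* lies near 0 in HPC-1.

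The test between LT-HSC and HPC-1, taken as the mean over the 5 combinations of agent and genotype with replicates in both, called 6543 of 18013 genes, which is 36.3% of genes tested. It called 6 of the 8 genes, 5 higher in LT-HSC where 17.9% of all genes were, and 1 lower where 18.4% were. Their median log2 fold change was 0.32, beside 0.03 over all genes.

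In LT-HSC, Ang II *Apoe*-/-*Il27ra*-/- against Ang II *Apoe*-/- called 277 of 16365 genes (185 higher and 92 lower, 1.69%) and 1 of the 8. The unadjusted p was under 0.05 for 2896 genes, DESeq2 called 780 and limma-voom 100. The median log2 fold change was 0.11 over the 8 genes and 0.14 over all genes. The 277 became 627 without *Apoe*-/- replicate 1, 150 without *Apoe*-/-*Il27ra*-/- replicate 1, 98 without *Apoe*-/-*Il27ra*-/- replicate 3 and 121 without *Apoe*-/-*Il27ra*-/- replicate 4. Ang II *Apoe*-/-*Il27ra*+/- against Ang II *Apoe*-/- called 136 genes (0.831%) and 0 of the 8, with 2563 genes at an unadjusted p under 0.05, 437 called by DESeq2 and 68 by limma-voom. Those 136 became 565 without *Apoe*-/- replicate 1, 207 without *Apoe*-/- replicate 2, 65 without *Apoe*-/-*Il27ra*+/- replicate 2, 58 without *Apoe*-/-*Il27ra*+/- replicate 3 and 53 without *Apoe*-/-*Il27ra*+/- replicate 4. The *Apoe*-/- libraries were the controls of both comparisons.

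Comparisons of *Apoe*-/-*Il27ra*-/- with *Apoe*-/-*Il27ra*+/- gave few calls in LT-HSC. With Ang II, edgeR called 0 genes (0%), with 426 at an unadjusted p under 0.05, 2 called by DESeq2 and 0 by limma-voom. With PBS, edgeR called 0 genes (0%), with 653 at an unadjusted p under 0.05, 1 called by DESeq2 and 0 by limma-voom. As the mean over both agents, edgeR called 1 gene (0.00611%), *H2-Q6*, a class I major histocompatibility gene with a log2 fold change of −0.80 (SE 0.122, edgeR adjusted p = 0.0398), with 777 genes at an unadjusted p under 0.05, 18 called by DESeq2 and 2 by limma-voom. With the replicate number as a block, since equal numbers correlated between these groups, the count was 5. In edgeR none of the 8 genes was called in these 3 comparisons, whereas DESeq2 called *Il27ra* in the last of them. The 1 call became 0 to 7 on leaving out a library, with 7 without PBS *Apoe*-/-*Il27ra*-/- replicate 3, 3 without PBS *Apoe*-/-*Il27ra*-/- replicate 1 or replicate 2, 1 without Ang II *Apoe*-/-*Il27ra*-/- replicate 2 or replicate 3, and 0 without any of the other 9.

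In HPC-1, 8 genotype comparisons gave 64 tests of the 8 genes and 0 calls in edgeR. All genes together gave 0.0152% called in PBS *Apoe*-/-*Il27ra*-/- against PBS *Apoe*-/-, 0.167% in *Apoe*-/-*Il27ra*-/- against *Apoe*-/- as the mean over both agents, and 0% in the other 6. Over those 8 comparisons, 151 to 1161 genes had an unadjusted p under 0.05, DESeq2 called 0 to 91 and limma-voom 0 to 201. The log2 fold changes of the 8 genes ran from −1.87 to 0.99, 3 of the 64 had an unadjusted p under 0.05, and the smallest adjusted p was 0.637. The calls in PBS *Apoe*-/-*Il27ra*-/- against PBS *Apoe*-/- were *Emilin2*, an extracellular matrix gene (log2 −1.58), and *Gm21887* (log2 −2.65), both at an adjusted p of 0.0426 and both named after their values were seen. They became 1 without *Apoe*-/-*Il27ra*-/- replicate 1 and 0 without any of the other 4 libraries. The mean over both agents gave 22 calls, which became 4 and 0 without PBS *Apoe*-/- replicates 1 and 2, and 1, 0 and 14 without PBS *Apoe*-/-*Il27ra*-/- replicates 1, 2 and 3. They became 6 and 10 without Ang II *Apoe*-/- replicates 1 and 2, and 0, 12 and 11 without Ang II *Apoe*-/-*Il27ra*-/- replicates 1, 2 and 4.

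Ang II against PBS gave 0 calls (0%) in edgeR in each of 3 comparisons in LT-HSC and 4 in HPC-1. The unadjusted p was under 0.05 for 150 to 806 genes in LT-HSC, where DESeq2 called 0 to 1 and limma-voom called 0. It was under 0.05 for 244 to 519 genes in HPC-1, where DESeq2 called 1 to 4 and limma-voom 0. The 8 genes had log2 fold changes from −0.37 to 0.53 in the LT-HSC comparisons and from −1.05 to 1.22 in those of HPC-1. In Ang II against PBS *Apoe*-/-*Il27ra*-/- of HPC-1 the 0 became 1 without PBS replicate 1 or without Ang II replicate 4.

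**Figure D2:**
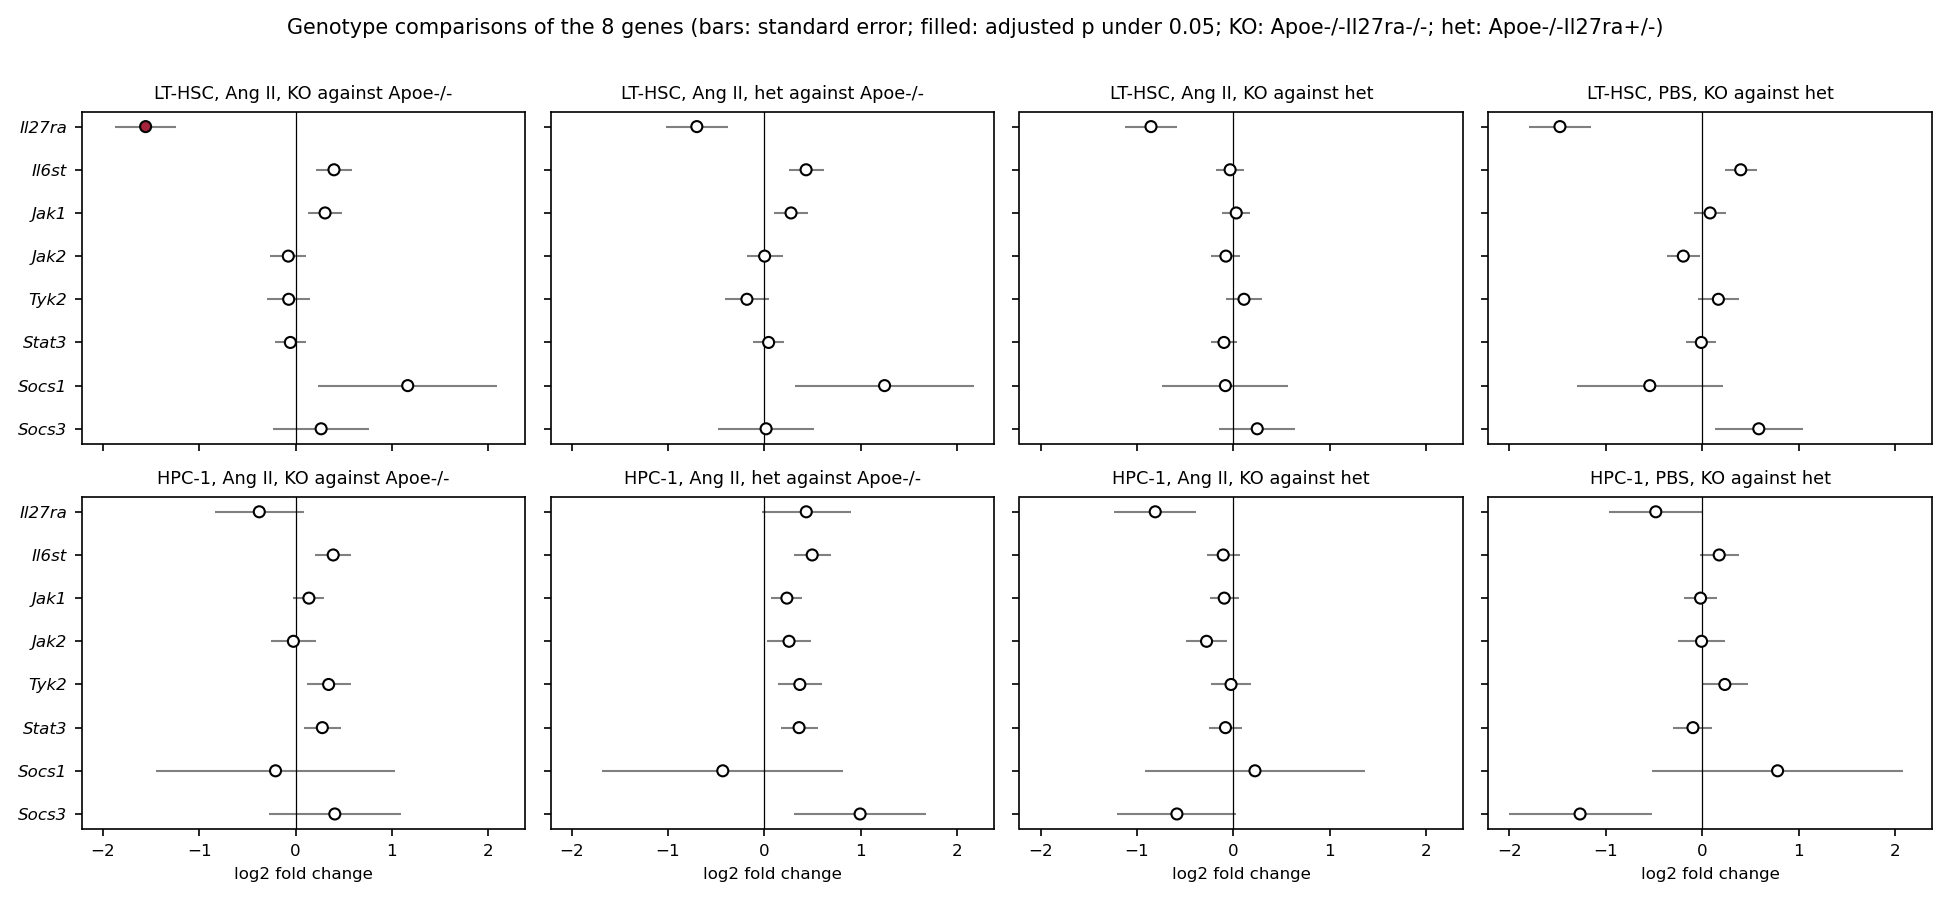
Log2 fold change between genotypes for the 8 genes, with the standard error as bars, in 4 comparisons for LT-HSC and the same 4 for HPC-1; filled points have an adjusted p under 0.05. The one filled point is *Il27ra* in LT-HSC, Ang II *Apoe*-/-*Il27ra*-/- against Ang II *Apoe*-/-, at −1.56.

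*Il27ra* (ENSMUSG00000005465), which encodes the IL-27-specific receptor chain, lies on the minus strand at chr8:84030294-84042589 of mm10. In LT-HSC with Ang II its level was 42.9 and 51.8 in *Apoe*-/-, 30.2, 25.5, 27.1 and 32.8 in *Apoe*-/-*Il27ra*+/- and 16.3, 11.7, 16.2 and 19.3 in *Apoe*-/-*Il27ra*-/- (CPM). With PBS it was 17.1 in *Apoe*-/-, 42.7, 24.1 and 25.6 in *Apoe*-/-*Il27ra*+/- and 9.42, 6.94 and 16.3 in *Apoe*-/-*Il27ra*-/-. With Ang II the 3 genotypes did not overlap, *Apoe*-/- standing highest and *Apoe*-/-*Il27ra*-/- lowest, and with PBS every *Apoe*-/-*Il27ra*+/- library stood above every *Apoe*-/-*Il27ra*-/- library. The 6 megakaryocyte markers, *Vwf* and *Itga2b* the most abundant, moved alongside with PBS, at 1016 to 1038 CPM in *Apoe*-/-*Il27ra*+/- and 91.2 to 679 CPM in *Apoe*-/-*Il27ra*-/-, and overlapped with Ang II, at 721 to 2093 CPM and 371 to 1107 CPM. The group means with Ang II were 47.3 ± 6.30 CPM (SD, n = 2), 28.9 ± 3.27 CPM (SD, n = 4) and 15.8 ± 3.14 CPM (SD, n = 4).

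In HPC-1 *Il27ra* was lower and the genotypes lay closer. With PBS the levels were 8.26 and 11.9 in *Apoe*-/-, 15.6, 11.1 and 9.97 in *Apoe*-/-*Il27ra*+/- and 6.69, 11.1 and 8.35 in *Apoe*-/-*Il27ra*-/- (CPM). With Ang II they were 10.2, 8.88 and 6.07 in *Apoe*-/-, 5.46, 9.58, 14.3 and 16.5 in *Apoe*-/-*Il27ra*+/- and 6.63, 5.91, 4.64 and 9.04 in *Apoe*-/-*Il27ra*-/-. The 3 genotypes overlapped under both agents, and the highest value, 16.5 CPM in Ang II *Apoe*-/-*Il27ra*+/-, was below 11 of the 17 LT-HSC libraries. LT-HSC exceeded HPC-1 by a log2 fold change of 1.34 (SE 0.168, edgeR adjusted p = 2.95e-08), and 16 of 17 LT-HSC libraries stood above the HPC-1 median of 9.04 CPM.

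Counts of *Il27ra* remained in every *Apoe*-/-*Il27ra*-/- library. They ran from 22 to 140 in LT-HSC and from 16 to 46 in HPC-1. Which exons of *Il27ra* these reads covered was not analysed here, since the table gives 1 count per gene. The gene overlaps *Palm3* on the opposite strand, which had 337 counts over all 36 libraries.

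In LT-HSC with Ang II, *Il27ra* in *Apoe*-/-*Il27ra*-/- fell against *Apoe*-/- by a log2 fold change of −1.56 (SE 0.319, edgeR adjusted p = 0.0195), with all 4 *Apoe*-/-*Il27ra*-/- libraries below both *Apoe*-/- libraries. Other markers separated the 2 groups, with T and NK cell sums of 3.48 to 5.78 in *Apoe*-/- against 10.9 to 28.5 CPM. Monocyte and macrophage sums were 3.37 to 3.98 against 5.55 to 353 CPM, and granulocyte sums 35.3 to 37.1 against 40.1 to 7076 CPM. Plasma cell sums were 39.0 to 66.7 against 70.6 to 100.1 CPM, with *Xbp1* the most abundant gene of that list. Stroma and endothelium sums were 98.5 to 117 against 82.4 to 95.1 CPM, with *Pecam1* the most abundant, and had a median of 86.0 CPM in LT-HSC and 274 CPM in HPC-1. In the *Apoe*-/- libraries 3 counts of a gene stand for 1.44 and 1.49 CPM, so their T and NK cell and monocyte sums rest on few counts. The intestinal list also separated the 2 groups, the rest overlapped, and the part of such RNA was not tested. The call was lost without *Apoe*-/- replicate 2 (log2 −1.42, adjusted p = 0.0689) and without *Apoe*-/-*Il27ra*-/- replicate 3 (log2 −1.56, adjusted p = 0.0531), over a leave-one-out range of 0.0236 to 0.0689. It was lost when only the compared groups were fitted (log2 −1.59, adjusted p = 0.0760), within 0.00135 to 0.0760 over the settings. *Apoe*-/-*Il27ra*+/- against *Apoe*-/- gave −0.70 (SE 0.320, edgeR adjusted p = 0.296). *Apoe*-/-*Il27ra*-/- against *Apoe*-/-*Il27ra*+/- gave −0.85 with Ang II (SE 0.271, unadjusted p = 0.00519, adjusted p = 1) and −1.48 with PBS (SE 0.319, unadjusted p = 0.000174, adjusted p = 0.982), both by edgeR. The PBS value ran from −1.52 to −0.92 over the settings, with an adjusted p of 0.0122 to 1, and it was called with no filter on low counts (log2 −1.46).

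Averaged over both agents, *Il27ra* in LT-HSC gave −1.16 for *Apoe*-/-*Il27ra*-/- against *Apoe*-/-*Il27ra*+/- (SE 0.209, unadjusted p = 2.1e-05, edgeR adjusted p = 0.115). It was called by DESeq2 (log2 −1.18, adjusted p = 0.000193), with no filter on low counts (log2 −1.15) and without PBS *Apoe*-/-*Il27ra*-/- replicate 3 (log2 −1.39, adjusted p = 0.0121), in a leave-one-out range of 0.0121 to 0.385. Without the 3 doubted libraries the value was −0.98 (adjusted p = 0.126), where the settings ranged from 0.000193 to 0.126, and the Ang II *Apoe*-/-*Il27ra*-/- to *Apoe*-/- value was −1.46. The same average in HPC-1 was −0.65 (SE 0.324, unadjusted p = 0.0573, adjusted p = 1.00). The difference between LT-HSC and HPC-1 in that change was −0.52 (SE 0.361, unadjusted p = 0.157, adjusted p = 1), and the corresponding difference for Ang II *Apoe*-/-*Il27ra*-/- against *Apoe*-/- was −1.22 (SE 0.544, unadjusted p = 0.0311, adjusted p = 0.479). A further test asked whether LT-HSC of *Apoe*-/-*Il27ra*-/- and *Apoe*-/-*Il27ra*+/- mice differed in the response to Ang II, and the 3 tests of a difference called 0 of the 8 genes by edgeR.

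For all genes, the difference between LT-HSC and HPC-1 in Ang II *Apoe*-/-*Il27ra*-/- against *Apoe*-/- gave 9 calls (0.05%), and the other 2 tests of a difference gave 0 (0%). The 9 became 64 without the LT-HSC *Apoe*-/- replicate 1 and 23 without the LT-HSC *Apoe*-/- replicate 2. Over the 3 tests of a difference, 414 to 1776 genes had an unadjusted p under 0.05, DESeq2 called 0 to 58 and limma-voom 0 to 3. Of the 24 tests of the 8 genes, 2 had an unadjusted p under 0.05 in edgeR, those of *Il27ra* above and of *Socs3* below. Ang II against PBS gave a log2 fold change of *Il27ra* of 0.53 in *Apoe*-/-*Il27ra*-/- LT-HSC (SE 0.299, unadjusted p = 0.0934) and −0.09 in *Apoe*-/-*Il27ra*+/- LT-HSC, with an adjusted p of 1 for each.

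*Il6st* (ENSMUSG00000021756; plus strand, chr13:112464070-112510086) encodes gp130, the chain that IL-27R shares with the receptors of the IL-6 family. In LT-HSC with PBS its level was 88.9 in *Apoe*-/-, 85.5, 80.8 and 95.2 in *Apoe*-/-*Il27ra*+/- and 117, 126 and 103 in *Apoe*-/-*Il27ra*-/- (CPM). Given Ang II, it was 66.0 and 73.2 in *Apoe*-/-, 92.4, 98.8, 99.9 and 82.1 in *Apoe*-/-*Il27ra*+/- and 87.7, 72.1, 103 and 101 in *Apoe*-/-*Il27ra*-/-. With PBS every *Apoe*-/-*Il27ra*-/- library stood above the others. The megakaryocyte markers separated these libraries from PBS *Apoe*-/-*Il27ra*+/- as well, in the other direction, at 91.2 to 679 against 1016 to 1038 CPM. With Ang II both *Apoe*-/- libraries stood below all 4 *Apoe*-/-*Il27ra*+/- libraries and below 3 of the 4 *Apoe*-/-*Il27ra*-/- libraries, replicate 2 lying between them.

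*Il6st* in HPC-1 with PBS was at 148 and 114 in *Apoe*-/-, 93.0, 91.4 and 143 in *Apoe*-/-*Il27ra*+/- and 129, 106 and 136 in *Apoe*-/-*Il27ra*-/- (CPM). *Il6st* with Ang II was at 113, 108 and 143 in *Apoe*-/-, 173, 150.1, 205 and 168 in *Apoe*-/-*Il27ra*+/- and 178, 182, 148 and 139 in *Apoe*-/-*Il27ra*-/-. The genotypes overlapped with PBS, and with Ang II all 4 *Apoe*-/-*Il27ra*+/- libraries stood above the 3 *Apoe*-/- libraries. All 4 Ang II *Apoe*-/-*Il27ra*+/- libraries also stood above all 3 PBS *Apoe*-/-*Il27ra*+/- libraries. Other markers separated the same 2 groups, with granulocyte sums of 254 to 559 CPM with PBS and 721 to 1219 CPM with Ang II, monocyte and macrophage sums of 66.3 to 177 and 208 to 260.2 CPM, and HPC-1 marker sums of 4043 to 6376 and 6494 to 7735 CPM. The monocyte and macrophage sum also set Ang II *Apoe*-/-*Il27ra*+/- apart from Ang II *Apoe*-/-, at 112 to 175 CPM.

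*Il6st* ran opposite to *Il27ra* between the cell types. It was lower in LT-HSC by a log2 fold change of −0.59 (SE 0.0825, edgeR adjusted p = 2.48e-07), with 8 LT-HSC libraries below the lowest HPC-1 library and 18 of 19 HPC-1 libraries above the LT-HSC median of 92.4 CPM. Between genotypes no change of *Il6st* was called. In LT-HSC with PBS, *Apoe*-/-*Il27ra*-/- against *Apoe*-/-*Il27ra*+/- gave 0.40 (SE 0.166, unadjusted p = 0.0263, edgeR adjusted p = 0.982). In LT-HSC with Ang II the log2 fold change against *Apoe*-/- was 0.43 in *Apoe*-/-*Il27ra*+/- (SE 0.182, unadjusted p = 0.0283, adjusted p = 0.255) and 0.40 in *Apoe*-/-*Il27ra*-/- (SE 0.182, unadjusted p = 0.0409, adjusted p = 0.257). In HPC-1 with Ang II it was 0.50 in *Apoe*-/-*Il27ra*+/- (SE 0.190, unadjusted p = 0.0151, adjusted p = 0.637) and 0.39 in *Apoe*-/-*Il27ra*-/- (SE 0.189, unadjusted p = 0.0494, adjusted p = 0.954). The difference between LT-HSC and HPC-1 in *Apoe*-/-*Il27ra*-/- against *Apoe*-/- was −0.03 (SE 0.268, unadjusted p = 0.914).

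Ang II against PBS gave the smallest unadjusted p of the HPC-1 comparisons for *Il6st* in *Apoe*-/-*Il27ra*+/- mice, with a log2 fold change of 0.66 (SE 0.190, unadjusted p = 0.00185, edgeR adjusted p = 1). These are the groups in which the granulocyte, monocyte and HPC-1 markers stood apart as well. In HPC-1 it was 0.38 in *Apoe*-/-*Il27ra*-/- (unadjusted p = 0.0538) and −0.10 in *Apoe*-/- (unadjusted p = 0.674), and 0.32 over the 3 genotypes (SE 0.117, unadjusted p = 0.0121, adjusted p = 1.00). In LT-HSC it was −0.35 in *Apoe*-/-*Il27ra*-/- (SE 0.154, unadjusted p = 0.0344, adjusted p = 1) and 0.08 in *Apoe*-/-*Il27ra*+/-, and the difference between these was −0.43 (SE 0.220, unadjusted p = 0.0634, adjusted p = 1.00).

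*Jak1* (ENSMUSG00000028530; minus strand, chr4:101152367-101265282) encodes the kinase bound to gp130 and IL-27Rα and had the highest level per length of the 8 genes. *Jak1* in LT-HSC with PBS was at 380.4 in *Apoe*-/-, 416, 330.3 and 434 in *Apoe*-/-*Il27ra*+/- and 466, 333 and 451 in *Apoe*-/-*Il27ra*-/- (CPM). *Jak1* with Ang II was at 449 and 302 in *Apoe*-/-, 434, 467, 441 and 466 in *Apoe*-/-*Il27ra*+/- and 481, 425, 461 and 474 in *Apoe*-/-*Il27ra*-/-. The genotypes overlapped under both agents, and Ang II *Apoe*-/- replicate 2 was the lowest LT-HSC library.

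*Jak1* in HPC-1 with PBS was at 362 and 303 in *Apoe*-/-, 405, 415 and 304 in *Apoe*-/-*Il27ra*+/- and 389.8, 388 and 332 in *Apoe*-/-*Il27ra*-/- (CPM). *Jak1* with Ang II was at 333, 330.4 and 215 in *Apoe*-/-, 324, 391, 323 and 364 in *Apoe*-/-*Il27ra*+/- and 341, 298, 333 and 342 in *Apoe*-/-*Il27ra*-/-. The genotypes overlapped again, and Ang II *Apoe*-/- replicate 3 was the lowest of all 36 libraries. LT-HSC stood above HPC-1 by a log2 fold change of 0.29 (SE 0.0742, edgeR adjusted p = 0.00171), with 13 LT-HSC libraries above the highest HPC-1 library. Between genotypes, the largest log2 change of *Jak1* was 0.31, in LT-HSC of Ang II *Apoe*-/-*Il27ra*-/- against *Apoe*-/- (SE 0.178, unadjusted p = 0.102, adjusted p = 0.382).

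*Jak2* (ENSMUSG00000024789; plus strand, chr19:29251828-29313080), another kinase that gp130 can engage, also serves the thrombopoietin receptor of stem cells. *Jak2* in LT-HSC with PBS was at 169 in *Apoe*-/-, 154, 146 and 168 in *Apoe*-/-*Il27ra*+/- and 166, 98.9 and 146 in *Apoe*-/-*Il27ra*-/- (CPM). *Jak2* with Ang II was at 162 and 147 in *Apoe*-/-, 148, 152, 156 and 160.3 in *Apoe*-/-*Il27ra*+/- and 147, 119, 156 and 161 in *Apoe*-/-*Il27ra*-/-. The PBS *Apoe*-/- library was the highest of all 36 and the genotypes overlapped otherwise, and the lowest LT-HSC library was PBS *Apoe*-/-*Il27ra*-/- replicate 2, the one with HPC-1 markers, followed by Ang II *Apoe*-/-*Il27ra*-/- replicate 2.

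*Jak2* in HPC-1 with PBS was at 75.5 and 108 in *Apoe*-/-, 107, 90.4 and 102 in *Apoe*-/-*Il27ra*+/- and 127, 78.8 and 92.1 in *Apoe*-/-*Il27ra*-/- (CPM). *Jak2* with Ang II was at 107, 92.9 and 59.4 in *Apoe*-/-, 89.6, 74.4, 152 and 104 in *Apoe*-/-*Il27ra*+/- and 95.4, 83.1, 82.6 and 85.3 in *Apoe*-/-*Il27ra*-/-. The genotypes overlapped, and all 17 LT-HSC libraries stood above the HPC-1 median of 92.1 CPM, 10 of them above the highest HPC-1 library. The log2 fold change of LT-HSC over HPC-1 was 0.65 (SE 0.0955, edgeR adjusted p = 6.62e-07), the largest of the 3 kinases.

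*Tyk2* (ENSMUSG00000032175; minus strand, chr9:21104068-21131243) encodes a kinase of the IL-6, IL-12 and interferon receptors. *Tyk2* in LT-HSC with PBS was at 28.5 in *Apoe*-/-, 49.1, 40.6 and 37.7 in *Apoe*-/-*Il27ra*+/- and 38.1, 48.9 and 55.1 in *Apoe*-/-*Il27ra*-/- (CPM). *Tyk2* with Ang II was at 42.4 and 65.2 in *Apoe*-/-, 44.8, 40.05, 55.2 and 47.8 in *Apoe*-/-*Il27ra*+/- and 50.7, 45.7, 47.6 and 58.5 in *Apoe*-/-*Il27ra*-/-. The *Apoe*-/- mice held both the lowest value of the 36 libraries, with PBS, and the highest, with Ang II, and the other genotypes lay between.

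*Tyk2* in HPC-1 with PBS was at 41.3 and 47.3 in *Apoe*-/-, 32.8, 35.5 and 45.2 in *Apoe*-/-*Il27ra*+/- and 41.1, 45.2 and 47.5 in *Apoe*-/-*Il27ra*-/- (CPM). *Tyk2* with Ang II was at 32.3, 39.0 and 28.6 in *Apoe*-/-, 40.02, 37.9, 45.2 and 51.7 in *Apoe*-/-*Il27ra*+/- and 43.3, 29.6, 44.0 and 55.4 in *Apoe*-/-*Il27ra*-/-. Genotypes overlapped, and so did the cell types, with 2 LT-HSC libraries above the highest HPC-1 library and 1 below the lowest. The log2 fold change of LT-HSC over HPC-1 was 0.25 (SE 0.1002, edgeR adjusted p = 0.0431). This call of *Tyk2* was lost on leaving out any 1 of 11 of 33 libraries, where the adjusted p ranged from 0.0139 to 0.194 over the 33. Of LT-HSC they were PBS *Apoe*-/-*Il27ra*+/- replicate 1 (log2 0.23), PBS *Apoe*-/-*Il27ra*-/- replicate 3 (0.24), Ang II *Apoe*-/- replicate 2 (0.18) and Ang II *Apoe*-/-*Il27ra*+/- replicate 3 (0.24). Of HPC-1 they were PBS *Apoe*-/-*Il27ra*+/- replicate 2 (0.25), PBS *Apoe*-/-*Il27ra*-/- replicate 1 (0.24), Ang II *Apoe*-/- replicate 1 (0.25) and replicate 3 (0.23), Ang II *Apoe*-/-*Il27ra*+/- replicate 2 (0.24), and Ang II *Apoe*-/-*Il27ra*-/- replicate 1 (0.25) and replicate 3 (0.26). It was also lost with no filter on low counts (log2 0.25, adjusted p = 0.212) and with sex as a covariate (log2 0.18, adjusted p = 0.164), within 0.00231 to 0.212 over the settings.

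*Stat3* (ENSMUSG00000004040; minus strand, chr11:100885098-100939540) encodes the main transcription factor activated through gp130. *Stat3* in LT-HSC with PBS was at 344 in *Apoe*-/-, 258, 203 and 248 in *Apoe*-/-*Il27ra*+/- and 224, 205 and 276 in *Apoe*-/-*Il27ra*-/- (CPM). *Stat3* with Ang II was at 255 and 273 in *Apoe*-/-, 274, 264, 239 and 304 in *Apoe*-/-*Il27ra*+/- and 275, 239.5, 220.4 and 274 in *Apoe*-/-*Il27ra*-/-. The PBS *Apoe*-/- library was the highest of all 36, and with Ang II the 3 genotypes overlapped. Its annotation overlaps *Stat5a* on the opposite strand, which had 17925 counts over the 36 libraries.

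*Stat3* in HPC-1 with PBS was at 209 and 253 in *Apoe*-/-, 221, 267 and 176 in *Apoe*-/-*Il27ra*+/- and 211, 201 and 209 in *Apoe*-/-*Il27ra*-/- (CPM). *Stat3* with Ang II was at 195, 186 and 128 in *Apoe*-/-, 178, 198, 258 and 249 in *Apoe*-/-*Il27ra*+/- and 201, 181, 178 and 277 in *Apoe*-/-*Il27ra*-/-. The genotypes overlapped, and Ang II *Apoe*-/- replicate 3 was the lowest of all 36 libraries. All 17 LT-HSC libraries stood above the HPC-1 median of 201 CPM, and the log2 fold change of LT-HSC over HPC-1 was 0.29 (SE 0.0814, edgeR adjusted p = 0.00357). Ang II against PBS in *Apoe*-/- HPC-1 gave −0.43 (SE 0.225, unadjusted p = 0.0657, adjusted p = 1). In LT-HSC, Ang II *Apoe*-/-*Il27ra*-/- against *Apoe*-/- gave −0.05 (SE 0.164, edgeR adjusted p = 0.880) for *Stat3*.

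The HPC-1 library Ang II *Apoe*-/- replicate 3 held the lowest HPC-1 value of *Jak1*, *Jak2*, *Tyk2*, *Stat3* and *Socs3*. It was also the library with the fewest genes detected, 13053, the raised intestinal list, 325 CPM, and a total of 2319520 counts. The LT-HSC library PBS *Apoe*-/-*Il27ra*-/- replicate 2 held the lowest LT-HSC value of *Il27ra* and *Jak2* and the highest of *Il6st*, each on the side of HPC-1. The lone PBS *Apoe*-/- LT-HSC library held the highest value of *Jak2*, *Stat3*, *Socs1* and *Socs3* of all 36 libraries and the lowest of *Tyk2*, and with 1 library it was not compared with PBS *Apoe*-/-*Il27ra*+/- or PBS *Apoe*-/-*Il27ra*-/-. The part of library composition in these values was not tested.

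*Socs1* (ENSMUSG00000038037; minus strand, chr16:10782240-10785536) encodes an inhibitor of JAK activity that STAT signaling induces, and it was the least abundant of the 8 genes. *Socs1* in LT-HSC with PBS was at 12.4 in *Apoe*-/-, 6.31, 5.07 and 4.49 in *Apoe*-/-*Il27ra*+/- and 2.57, 2.51 and 5.59 in *Apoe*-/-*Il27ra*-/- (CPM). *Socs1* with Ang II was at 0 and 3.48 in *Apoe*-/-, 1.41, 2.99, 5.03 and 6.51 in *Apoe*-/-*Il27ra*+/- and 2.96, 3.02, 6.34 and 3.03 in *Apoe*-/-*Il27ra*-/-. The count of 0 in Ang II *Apoe*-/- replicate 1 allows up to 1.44 CPM, and the genotypes overlapped with both agents except that the PBS *Apoe*-/- library stood highest.

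*Socs1* in HPC-1 with PBS was at 2.36 and 0.3504 in *Apoe*-/-, 1.65, 0.976 and 1.63 in *Apoe*-/-*Il27ra*+/- and 0.956, 3.39 and 3.08 in *Apoe*-/-*Il27ra*-/- (CPM). *Socs1* with Ang II was at 0.898, 0.951 and 3.47 in *Apoe*-/-, 0, 1.37, 0 and 3.39 in *Apoe*-/-*Il27ra*+/- and 0.577, 0, 1.45 and 3.93 in *Apoe*-/-*Il27ra*-/-. The genotypes overlapped, with 10 of the 19 HPC-1 libraries at 3 counts or fewer against 2 of 17 in LT-HSC. The 3 counts of 0 allow up to 1.36, 1.30 and 1.04 CPM. The log2 fold change of *Socs1* in LT-HSC over HPC-1 was 1.05 (SE 0.4662, edgeR adjusted p = 0.0746), with 8 LT-HSC libraries above the highest HPC-1 library. It was called by DESeq2 (log2 1.14, adjusted p = 0.0261) and limma-voom (log2 1.31, adjusted p = 0.00528), within 0.00528 to 0.188 over the settings.

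The *Socs1* difference between cell types turned on single libraries. Without the LT-HSC sample Ang II *Apoe*-/- replicate 2 it was −0.0885 (adjusted p = 0.931), a fit in which that group was left with the library at 0 counts. It was called without LT-HSC Ang II *Apoe*-/- replicate 1 (log2 1.25, adjusted p = 0.0324), HPC-1 Ang II *Apoe*-/- replicate 3 (1.22, 0.0402), HPC-1 Ang II *Apoe*-/-*Il27ra*+/- replicate 4 (1.35, 0.0228) and HPC-1 Ang II *Apoe*-/-*Il27ra*-/- replicate 4 (1.28, 0.0290). The adjusted p ranged from 0.0228 to 0.931 over the 33 libraries left out.

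*Socs3* (ENSMUSG00000053113; minus strand, chr11:117966079-117970047) encodes the inhibitor that binds gp130 itself and is a standard target gene of STAT3. *Socs3* in LT-HSC with PBS was at 34.7 in *Apoe*-/-, 10.7, 4.75 and 13.3 in *Apoe*-/-*Il27ra*+/- and 8.996, 11.7 and 22.4 in *Apoe*-/-*Il27ra*-/- (CPM). *Socs3* with Ang II was at 15.9 and 10.9 in *Apoe*-/-, 13.2, 11.2, 15.5 and 13.9 in *Apoe*-/-*Il27ra*+/- and 15.9, 28.1, 8.38 and 12.4 in *Apoe*-/-*Il27ra*-/-. The PBS *Apoe*-/- library stood highest of all 36 and Ang II *Apoe*-/-*Il27ra*-/- replicate 2, the library with granulocyte markers, next, while the genotypes overlapped otherwise.

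*Socs3* in HPC-1 with PBS was at 13.4 and 23.8 in *Apoe*-/-, 12.9, 11.7 and 12.4 in *Apoe*-/-*Il27ra*+/- and 4.78, 2.46 and 7.91 in *Apoe*-/-*Il27ra*-/- (CPM). *Socs3* with Ang II was at 11.1, 15.2 and 0 in *Apoe*-/-, 21.4, 10.95, 16.9 and 22.6 in *Apoe*-/-*Il27ra*+/- and 3.17, 21.9, 13.6 and 9.43 in *Apoe*-/-*Il27ra*-/-. With PBS all 3 *Apoe*-/-*Il27ra*-/- libraries stood below every *Apoe*-/-*Il27ra*+/- and *Apoe*-/- library, whereas with Ang II the genotypes overlapped, and the count of 0 in *Apoe*-/- replicate 3 allows up to 1.30 CPM. With PBS the *Apoe*-/- libraries also stood above *Apoe*-/-*Il27ra*-/- for granulocyte markers (593 to 907 against 226 to 534 CPM), monocyte and macrophage markers (196 to 201 against 56.6 to 177 CPM) and HPC-1 markers (7098 to 7231 against 4174 to 6089 CPM). The same held for erythroid (42.5 to 169 against 22.3 to 34.5 CPM), megakaryocyte (128 to 134 against 81.9 to 106 CPM) and intestinal markers (85.5 to 100.3 against 38.7 to 81.6 CPM). For LT-HSC markers they stood below, at 275 to 380.5 against 449.97 to 626 CPM. *Apoe*-/-*Il27ra*+/- and *Apoe*-/-*Il27ra*-/- overlapped for each of these lists, and the part of such RNA in *Socs3* was not tested. The log2 fold change of *Socs3* with PBS was −1.87 for *Apoe*-/-*Il27ra*-/- against *Apoe*-/- (SE 0.805, unadjusted p = 0.0298, edgeR adjusted p = 0.706) and −1.27 for *Apoe*-/-*Il27ra*-/- against *Apoe*-/-*Il27ra*+/- (SE 0.742, unadjusted p = 0.101, adjusted p = 1). Averaged over both agents *Apoe*-/-*Il27ra*-/- against *Apoe*-/-*Il27ra*+/- gave −0.93 in HPC-1 (SE 0.482, unadjusted p = 0.0675, adjusted p = 1.00) and 0.42 in LT-HSC (SE 0.302, unadjusted p = 0.182, adjusted p = 1.00). The difference between the cell types in that change was 1.34 (SE 0.596, unadjusted p = 0.0307, adjusted p = 1). LT-HSC and HPC-1 overlapped, with a log2 fold change of 0.34 (SE 0.278, edgeR adjusted p = 0.390).

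Per kilobase of exon, the median levels in LT-HSC were 61.1 CPM per kb for *Jak1*, 30.7 for *Jak2*, 27.1 for *Stat3*, 8.32 for *Il6st*, 6.94 for *Tyk2*, 6.89 for *Il27ra*, 4.57 for *Socs3* and 1.198 for *Socs1*. *Jak1* was above *Jak2*, and *Stat3* above *Il6st*, in 17 of 17 LT-HSC libraries. The place of *Il27ra* followed genotype: it was above *Tyk2* in 9 of the 10 LT-HSC libraries from mice with an intact copy and in 0 of the 7 from *Apoe*-/-*Il27ra*-/- mice, and above *Socs3* in 9 of 10 and 2 of 7. By the longest transcript it was also below *Tyk2* in PBS *Apoe*-/- and in PBS *Apoe*-/-*Il27ra*+/- replicate 2. The values there were 5.84 against 5.91 and 8.22 against 8.40 CPM per kb. *Jak2* was above *Stat3* in 13 of 17 by exon length, but by the length of the longest transcript the median of *Stat3* was 42.8 and that of *Jak2* 30.7 CPM per kb.

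In HPC-1 the same scale gave 46.1 CPM per kb for *Jak1*, 21.1 for *Stat3*, 18.3 for *Jak2*, 12.8 for *Il6st*, 6.02 for *Tyk2*, 4.29 for *Socs3*, 2.59 for *Il27ra* and 0.471 for *Socs1*. In HPC-1 *Il27ra* was below *Tyk2* in all 19 libraries, and below *Socs3* in 11 of the 12 libraries with an intact copy and 4 of the 7 without. *Il6st* exceeded *Tyk2* in 19 of 19 HPC-1 libraries and in 14 of 17 LT-HSC libraries, and *Stat3* exceeded *Jak2* in 15 of 19 in HPC-1. The SD between libraries was 3.58 CPM per kb for *Il27ra* in LT-HSC and 0.964 in HPC-1, and 1.41 and 2.84 for *Il6st*.

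**Figure D3:**
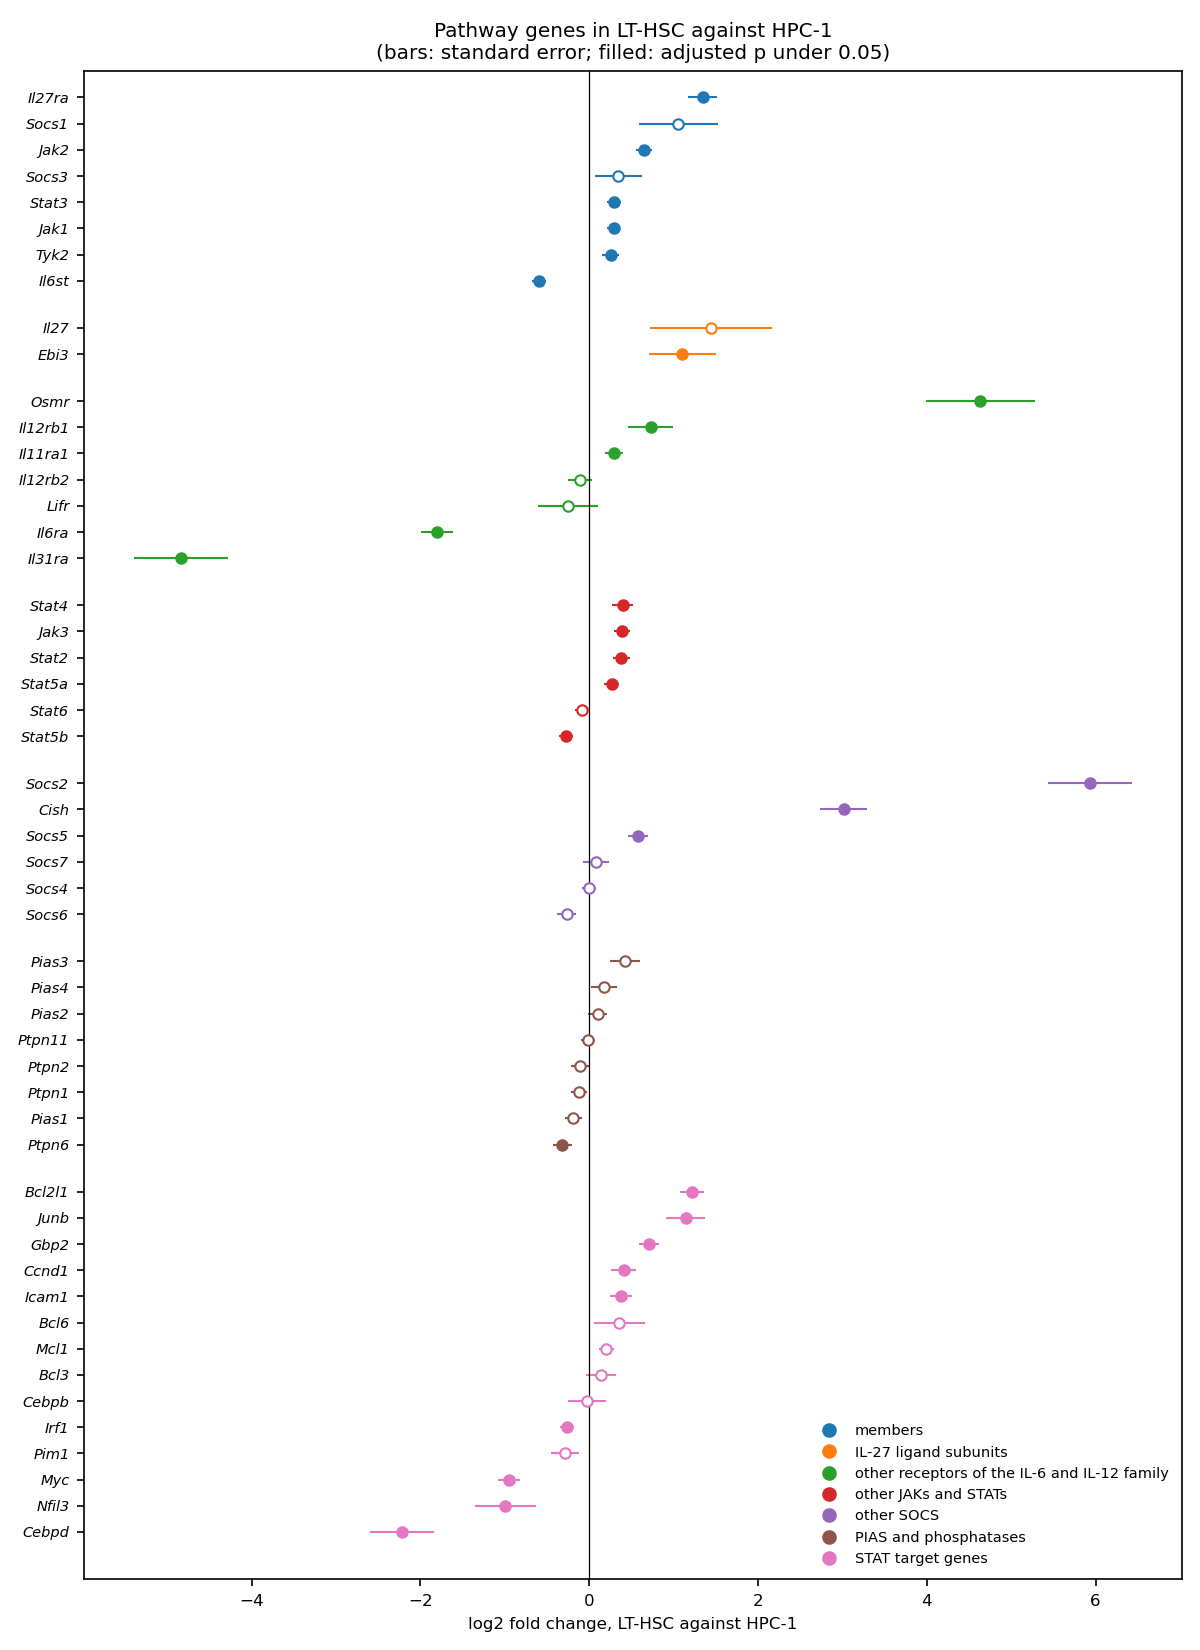
Log2 fold change of LT-HSC over HPC-1 for the 8 genes and for genes of 6 pathway lists, with the standard error as bars; filled points have an adjusted p under 0.05. *Socs2*, *Osmr* and *Cish* stand highest and *Il31ra* and *Cebpd* lowest.

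A set of 6 lists of other pathway genes held 48 genes, of which 44 were tested between the cell types, and 17 were higher in LT-HSC and 8 lower, beside 17.9% and 18.4% of all genes, or 36.3% together. *Cntfr*, *Il23r* and *Tbx21* had at most 3 counts in each of the 36 libraries and were not tested. Of the IL-27 subunits, *Ebi3* ran from 0.471 to 15.7 CPM in LT-HSC (median 9.42) and from 0 to 7.91 CPM in HPC-1 (median 4.20), with 11 LT-HSC libraries above the highest HPC-1 library. Its log2 fold change was 1.11 (SE 0.393, edgeR adjusted p = 0.0241). *Il27*, which encodes p28, was at 3 counts or fewer in 24 libraries and at 0 in 13, so that its level was near the limit of the depth.

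Of 7 other receptor chains of the IL-6 and IL-12 family tested, 3 were higher in LT-HSC and 2 lower, with a median log2 fold change of −0.11 beside 0.03 over all genes, of which 17.9% were higher and 18.4% lower. *Il6ra*, the IL-6-binding chain, ran from 10.2 to 63.3 CPM in LT-HSC (median 17.1) and from 48.5 to 118 CPM in HPC-1 (median 62.5), and 16 of 17 LT-HSC libraries were below the lowest HPC-1 library, the other being PBS *Apoe*-/-*Il27ra*-/- replicate 2. Its log2 fold change was −1.81 (SE 0.189, edgeR adjusted p = 5.04e-09). *Osmr*, the oncostatin M receptor, had a median of 6.54 CPM in LT-HSC and was at 0 in 13 of 19 HPC-1 libraries. *Il31ra* had a median of 9.43 CPM in HPC-1 and was at 0 in 10 of 17 LT-HSC libraries, with 10.8 CPM in PBS *Apoe*-/-*Il27ra*-/- replicate 2. The fitted log2 fold changes, 4.63 for *Osmr* and −4.84 for *Il31ra*, rest on few counts and depend on the prior count.

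*Il12rb1*, a chain of the IL-12 and IL-23 receptors, ran from 2.91 to 21.4 CPM in LT-HSC (median 9.61) and from 1.75 to 12.003 CPM in HPC-1 (median 4.78), with overlap. Its log2 fold change was 0.73 (SE 0.267, edgeR adjusted p = 0.0291), and that of *Il11ra1*, the IL-11-binding chain, was 0.29 (adjusted p = 0.0313). *Il12rb1* lost its call without the LT-HSC sample Ang II *Apoe*-/- replicate 2 (log2 0.44, adjusted p = 0.252) and without the HPC-1 sample PBS *Apoe*-/-*Il27ra*-/- replicate 1 (0.67, 0.0526), in a range of 0.00939 to 0.252. *Il11ra1* lost it without LT-HSC Ang II *Apoe*-/- replicate 2 (log2 0.27), LT-HSC Ang II *Apoe*-/-*Il27ra*-/- replicate 3 (0.27), HPC-1 PBS *Apoe*-/-*Il27ra*-/- replicate 1 (0.27) and HPC-1 Ang II *Apoe*-/- replicate 1 (0.24). *Ebi3* lost it without LT-HSC Ang II *Apoe*-/- replicate 1 (log2 0.91) and with sex as a covariate (0.79). With sex as a covariate *Il12rb1* (0.66) and *Il11ra1* (0.25) lost it too, as they did with no filter on low counts (0.72 and 0.29). *Osmr* was at 5.27 without HPC-1 PBS *Apoe*-/-*Il27ra*-/- replicate 3 and 5.23 without HPC-1 Ang II *Apoe*-/-*Il27ra*+/- replicate 4.

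Other JAK and STAT genes were called between the cell types as well. The log2 fold changes of LT-HSC over HPC-1 were 0.39 for *Jak3*, 0.38 for *Stat2*, 0.40 for *Stat4* and 0.27 for *Stat5a*, and −0.28 for *Stat5b*. Their adjusted p-values in edgeR ran from 0.00124 for *Jak3* to 0.0130 for *Stat5a*, and *Stat6* was not called.

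Of the 6 other SOCS genes, 3 were higher in LT-HSC and 0 lower in edgeR. The median log2 fold change was 0.33 beside 0.03 over all genes, of which 17.9% were higher and 18.4% lower. *Cish*, an inhibitor induced by STAT5, ran from 9.30 to 78.1 CPM in LT-HSC (median 53.6) and from 0 to 12.5 CPM in HPC-1 (median 5.22), with 16 of 17 LT-HSC libraries above the highest HPC-1 library. Its log2 fold change was 3.01 (SE 0.280, edgeR adjusted p = 1.31e-09). *Socs2*, a STAT5 target that restrains growth hormone signaling, ran from 0.738 to 34.3 CPM in LT-HSC (median 18.3) and was at 0 in 10 of 19 HPC-1 libraries. Its fitted log2 fold change of 5.93 rests on few HPC-1 counts and was 6.69 without PBS *Apoe*-/-*Il27ra*+/- replicate 3 and 6.70 without PBS *Apoe*-/-*Il27ra*-/- replicate 3 of HPC-1. *Socs5* had a log2 fold change of 0.58 (adjusted p = 0.000121), and *Socs4*, *Socs6* and *Socs7* were not called.

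Of the 8 genes for PIAS proteins and phosphatases that dampen JAK and STAT activity, 0 were higher in LT-HSC by edgeR and 1 was lower, *Ptpn6*, which encodes SHP-1, with a log2 fold change of −0.32 (SE 0.113, edgeR adjusted p = 0.0244). The median log2 fold change of the 8 was −0.06 beside 0.03 over all genes, of which 17.9% were higher and 18.4% lower. Over all genes that comparison had 7786 at an unadjusted p under 0.05, 6795 called by DESeq2 and 7757 by limma-voom. *Ptpn6* lost its call by DESeq2 (log2 −0.25), with upper-quartile scaling (−0.27) and with sex as a covariate (−0.19), where the adjusted p ran from 0.00189 to 0.128 over the settings. It lost it also on leaving out any 1 of 8 libraries, among an adjusted p of 0.00235 to 0.134 over the 33. They were LT-HSC PBS *Apoe*-/-*Il27ra*+/- replicate 3 (log2 −0.27), Ang II *Apoe*-/- replicate 1 (−0.30) and Ang II *Apoe*-/-*Il27ra*-/- replicates 1 (−0.28) and 4 (−0.28), and HPC-1 PBS *Apoe*-/-*Il27ra*+/- replicate 1 (−0.21), PBS *Apoe*-/-*Il27ra*-/- replicate 2 (−0.27), Ang II *Apoe*-/- replicate 2 (−0.29) and Ang II *Apoe*-/-*Il27ra*+/- replicate 1 (−0.27).

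Of 14 STAT target genes tested, 5 were higher in LT-HSC and 4 lower, with a median log2 fold change of 0.17 beside 0.03 over all genes, of which 17.9% were higher and 18.4% lower. *Bcl2l1*, an anti-apoptotic gene, ran from 25.7 to 87.1 CPM in LT-HSC (median 46.3) and from 11.4 to 28.7 CPM in HPC-1 (median 22.4), and its log2 fold change was 1.22 (edgeR adjusted p = 4.61e-09). *Junb* was higher by 1.14 (adjusted p = 0.000184) and the interferon-inducible *Gbp2* by 0.70 (adjusted p = 6.96e-06). *Cebpd* was lower, at −2.22 (adjusted p = 1.21e-05), and without LT-HSC Ang II *Apoe*-/- replicate 1 it was −3.002. *Myc* was lower, at −0.95, and so was *Irf1*, at −0.26 (adjusted p = 0.0133), whose call was lost without HPC-1 PBS *Apoe*-/-*Il27ra*+/- replicate 1 (−0.18) or HPC-1 PBS *Apoe*-/-*Il27ra*-/- replicate 2 (−0.21). The *Irf1* call was also lost with upper-quartile scaling (−0.21), no filter on low counts (−0.27) and sex as a covariate (−0.21).

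Of the 44 list genes tested in LT-HSC of Ang II *Apoe*-/-*Il27ra*-/- against *Apoe*-/-, 0 were higher and 1 was lower in edgeR, beside 1.69% of all genes called, and this was the interferon-response factor *Irf1*. With Ang II *Irf1* was at 92.4 and 98.0 in *Apoe*-/-, 96.6, 68.9, 58.1 and 63.9 in *Apoe*-/-*Il27ra*+/- and 65.8, 47.0, 43.1 and 48.2 in *Apoe*-/-*Il27ra*-/- (CPM). *Irf1* with PBS was at 59.0 in *Apoe*-/-, 69.5, 70.7 and 64.5 in *Apoe*-/-*Il27ra*+/- and 67.3, 85.3 and 72.5 in *Apoe*-/-*Il27ra*-/-. With Ang II both *Apoe*-/- libraries stood above all 4 *Apoe*-/-*Il27ra*-/- libraries, while 1 of 4 *Apoe*-/-*Il27ra*+/- libraries reached the *Apoe*-/- range. With PBS the *Apoe*-/- library stood below all *Apoe*-/-*Il27ra*+/- and *Apoe*-/-*Il27ra*-/- libraries, which overlapped. The T and NK cell, monocyte, granulocyte, plasma cell, stroma and intestinal sums separated Ang II *Apoe*-/- from Ang II *Apoe*-/-*Il27ra*-/-, as given for *Il27ra*. Their part in *Irf1* was not tested. The log2 fold change of *Irf1* was −0.89 (SE 0.214, edgeR adjusted p = 0.0414), where the adjusted p ranged from 0.00763 to 0.160 over the settings. It was called without *Apoe*-/-*Il27ra*-/- replicate 1 (log2 −1.04) and lost without *Apoe*-/- replicate 1 (−0.92), *Apoe*-/- replicate 2 (−0.85), *Apoe*-/-*Il27ra*-/- replicate 2 (−0.86), *Apoe*-/-*Il27ra*-/- replicate 3 (−0.82) or *Apoe*-/-*Il27ra*-/- replicate 4 (−0.87), with an adjusted p of 0.0284 to 0.111.

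In LT-HSC of Ang II *Apoe*-/-*Il27ra*-/- against *Apoe*-/-, *Il6ra* had a log2 fold change of 0.62 (edgeR adjusted p = 0.595) and *Il12rb1* of −0.49 (adjusted p = 0.672). Both values turned on single libraries. *Il6ra* was at 11.1 and 14.9 CPM in *Apoe*-/- and 14.4, 40.1, 10.2 and 15.4 CPM in *Apoe*-/-*Il27ra*-/-, replicate 2 being the library with granulocyte and HPC-1 markers, and its log2 fold change was 0.03 without the 3 doubted libraries. *Il12rb1* was at 4.81 and 21.4 CPM in *Apoe*-/- and 5.92, 9.93, 8.997 and 11.7 CPM in *Apoe*-/-*Il27ra*-/-, and its log2 fold change was −1.20 without *Apoe*-/- replicate 1 and 0.93 without *Apoe*-/- replicate 2.

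The 20 tested genes nearest to *Il27ra* on chromosome 8, 10 on either side, gave 0 calls by edgeR in any of the 9 LT-HSC comparisons, for which the counts over all genes at an unadjusted p under 0.05 and by DESeq2 and limma-voom stand above. In Ang II *Apoe*-/-*Il27ra*-/- against *Apoe*-/- their median log2 fold change was −0.27 beside 0.14 over all genes. In *Apoe*-/-*Il27ra*-/- against *Apoe*-/-*Il27ra*+/- over both agents it was −0.03. There *Adgrl1*, a latrophilin receptor gene at chr8:83900105-83941954, had a log2 fold change of −1.24 (SE 0.209, unadjusted p = 1.56e-05, edgeR adjusted p = 0.115), and *Palm3*, which overlaps *Il27ra*, of −1.75 (SE 0.547, unadjusted p = 0.00454, adjusted p = 1.00). Both were picked after their values were seen.

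The genes whose level followed *Il27ra* most closely over the 36 libraries, among 9858 genes with a mean of at least 10 CPM in LT-HSC, were *H2-Q6* (Pearson r of log2 CPM 0.875), *H2-Q7* (0.874), *Serpina3g* (0.873), *Itga2b* (0.859) and *Gse1* (0.856). Of the 8 genes, r with *Il27ra* was 0.753 for *Jak2*, 0.662 for *Stat3*, 0.491 for *Jak1*, 0.369 for *Tyk2*, 0.223 for *Socs3* and −0.728 for *Il6st*. *Socs1* was not among the genes compared. Within the 17 LT-HSC libraries the closest were *Tgtp1* (0.896), *H2-Q6* (0.881), *Tuba8* (0.828), *Nlk* (0.814) and *Ccnjl* (0.812), and among the 8 r was −0.658 for *Il6st*, 0.527 for *Jak2*, 0.379 for *Stat3*, 0.208 for *Tyk2*, −0.0760 for *Jak1* and −0.114 for *Socs3*. These values are a description, since the points share libraries, depth and, over all 36, the contrast between cell types.

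Because SOCS genes and *Irf1* are STAT targets, the 250 bases before the RefSeq start of each pathway gene were searched for the palindromic STAT motif TTCNNNGAA, which reads the same on both strands. RefSeq sequences of build GRCm38.p6 were matched for 41 of 56 pathway genes, and for 7 of the 8, with *Il27ra* the one unmatched. The motif stood in 2306 of 32851 promoters of that length (7.02%) and in 7 of the 57 promoters of the pathway genes. By gene it stood in 2197 of 27025 and in 6 of the 41, *Socs3*, *Il12rb2*, *Il31ra*, *Bcl6*, *Icam1* and *Irf1*. *Socs3* was the 1 of the 7 genes with a match, 154 bases before its RefSeq start, which lies inside the wider GENCODE span given above, so that the window does too, and *Socs1* had 0 matches in its window. The windows of *Socs3* (chr11:117969367-117969616, minus strand) and *Irf1* (chr11:53769764-53770013, plus strand, match 90 bases before the start) are shown with the match in capitals, as the inhibitor bound to gp130 and the list gene called between genotypes. A further window of *Irf1* (chr11:53770223-53770472) had 0 matches.
Socs3: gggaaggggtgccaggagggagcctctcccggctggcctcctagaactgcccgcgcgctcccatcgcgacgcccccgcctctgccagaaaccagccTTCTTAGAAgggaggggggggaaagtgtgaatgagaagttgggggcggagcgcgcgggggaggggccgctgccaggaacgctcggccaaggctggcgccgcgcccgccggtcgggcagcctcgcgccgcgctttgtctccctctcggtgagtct
Irf1: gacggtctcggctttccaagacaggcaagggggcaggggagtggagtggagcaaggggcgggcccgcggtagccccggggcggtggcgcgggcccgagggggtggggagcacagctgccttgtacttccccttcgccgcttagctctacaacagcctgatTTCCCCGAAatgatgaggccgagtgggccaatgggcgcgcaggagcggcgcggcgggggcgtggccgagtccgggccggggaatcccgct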

How the data were processed

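Expected counts per gene, as deposited, were made by the authors with RSEM 1.2.31 and Bowtie2 on mm10, per the labels; the methods of the paper name STAR and an earlier RSEM version. They were rounded to whole counts. Positions and symbols came from GENCODE M21, which held 37570 of the 38887 IDs. CPM were scaled by the trimmed mean of M values over 36 libraries. Tests were run in edgeR 4.0.16 (R 4.3.3; robust quasi-likelihood, filterByExpr) on 17 LT-HSC libraries (16365 genes), 19 HPC-1 libraries (13199 genes) and all 36 (18013 genes), with a group for each agent and genotype and Benjamini-Hochberg adjustment at 5% over the genes of each of 24 comparisons. The scripts (also Python 3.11.15, numpy 2.4.6, pandas 2.3.3, matplotlib 3.10.9) were tested on simulated data. The lone PBS *Apoe*-/- LT-HSC library entered no test.

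Alternatives were DESeq2 1.42.0, limma 3.58.1 with voom and quality weights, upper-quartile scaling, no filter on low counts, only the groups compared, the replicate number as a block, sex as a covariate, leaving out 3 doubted LT-HSC libraries, and leaving out each library. Replicate numbers were checked for pairing by correlating deviations from group means over 7767 genes with a mean of at least 20 CPM. Of 14 pairs of groups with 3 or more shared numbers, 4 had every r over 0.1 (LT-HSC *Apoe*-/-*Il27ra*+/- and *Apoe*-/-*Il27ra*-/- with PBS and with Ang II, LT-HSC *Apoe*-/-*Il27ra*-/- with PBS and Ang II, and HPC-1 *Apoe*-/-*Il27ra*+/- and *Apoe*-/-*Il27ra*-/- with PBS), and r ran from −0.351 to 0.709. The pairing is read from the data and not from the labels. Between LT-HSC *Apoe*-/-*Il27ra*+/- and *Apoe*-/-*Il27ra*-/-, 3 of 3 pairs correlated best at their own number with PBS and 2 of 4 with Ang II. Equal numbers of these 2 genotypes also shared sex, as read from *Xist* and the Y-linked genes. A pairing of mice and a shared sex cannot be told apart there. No 2 columns were identical.

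Named were the 8 genes in every library. From the lists came *Il6ra* and *Il12rb1* and, for each list and comparison, the called genes, up to 6 by smallest adjusted p. Of genes with a mean of at least 10 CPM in LT-HSC, the 5 with the highest r with *Il27ra* over 36 and over 17 libraries were named, on log2 CPM with a prior count of 2. Some list results are not reported here. Genes and lists were chosen with earlier results of these data known.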

Additional observations from a re-analysis of the deposited data

Results flagged for a closer look

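*Socs1* in the LT-HSC sample Ang II *Apoe*-/-*Il27ra*-/- replicate 3 was at 6.34 CPM (31 counts), where the other 3 replicates had 2.96 to 3.03 CPM. It was listed because it lay far from its group, at a gap of 0.979 of the group's range. Such a gap was looked for in 32 groups of values, of which about 1 in 20 would be listed by chance. Whether it is a property of the mouse or of counting at this level was not tested.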

How the results depend on the processing

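Of 1449 refits of single genes, 1379 kept the direction and the side of the threshold, 70 did not, and 2 of these reversed. The 1449 leave out the refits of *Il27ra* between genotypes in LT-HSC, whose changed calls are given below. In LT-HSC with Ang II, *Apoe*-/-*Il27ra*-/- against *Apoe*-/- called 277 genes in edgeR, 780 by DESeq2, 833 with no filter on low counts, 100 by limma-voom, 777 without the 3 doubted libraries, 32 with only the groups compared, and 98 to 627 on leaving out 1 library. *Apoe*-/-*Il27ra*+/- against *Apoe*-/- called 136, and in the same order 437, 496, 68, 377, 37, and 53 to 565. Averaged over the agents, *Apoe*-/-*Il27ra*-/- against *Apoe*-/-*Il27ra*+/- called 1, with 18 by DESeq2, 361 with no filter, 2 with sex as a covariate, 2 by limma-voom, 3 without the doubted libraries, and 0 to 7 on leaving out 1 library. In HPC-1 with PBS, *Apoe*-/-*Il27ra*-/- against *Apoe*-/- called 2, with 14 by DESeq2, 52 with no filter, 8 with sex, 8 by limma-voom, 28 with only the groups compared, and 0 to 1 on leaving out 1 library. There *Apoe*-/-*Il27ra*+/- against *Apoe*-/- called 0, with 6 by DESeq2, 21 with no filter and 1 with only the groups compared. Averaged over the agents, *Apoe*-/-*Il27ra*-/- against *Apoe*-/- in HPC-1 called 22, with 91 by DESeq2, 154 with no filter, 54 with sex, 201 by limma-voom, and 0 to 28 on leaving out 1 library. The difference between cell types in Ang II *Apoe*-/-*Il27ra*-/- against *Apoe*-/- called 9, with 58 by DESeq2, 192 with no filter, 3 by limma-voom, 19 without the doubted libraries, and 6 to 64 on leaving out 1 library. The 17 comparisons with 0 calls had 0 to 8 by DESeq2, 0 to 249 with no filter, 0 to 47 by limma-voom, 0 to 1 on leaving out 1 library, and 0 with upper-quartile scaling or sex; 12 of them had 0 to 4 with only the groups compared, and 7 had 0 without the doubted libraries. With the replicate block, the first 6 comparisons above called 97, 39, 5, 7, 2 and 38 genes, the 17 called 0 to 7, and *Socs1* between cell types was called (log2 1.30, adjusted p = 0.0223). The block changed no other call among the 8 genes, also where equal numbers correlated. *Il27ra* in Ang II *Apoe*-/-*Il27ra*-/- against *Apoe*-/- of LT-HSC ran from −1.75 to −1.46 over the settings (adjusted p 0.00135 to 0.0760) and from −1.68 to −1.42 on leaving out 1 library. With only the groups compared it was −1.59 and 0 of the 8 genes were called, and 0 to 1 on leaving out 1 library. In PBS *Apoe*-/-*Il27ra*-/- against *Apoe*-/-*Il27ra*+/- it was −1.46 with no filter (adjusted p = 0.0122), where 1 of the 8 genes was called, over a range of 0.0122 to 1. Averaged over the agents it was −1.18 by DESeq2 (adjusted p = 0.000193) and −1.15 with no filter (adjusted p = 0.00022), where 1 of the 8 was called by each, and −1.39 to −1.02 on leaving out 1 library, where 0 to 1 were called. Between cell types, *Il27ra* (1.31 to 1.42), *Il6st* (−0.63 to −0.52), *Jak1* (0.27 to 0.37), *Jak2* (0.65 to 0.73) and *Stat3* (0.28 to 0.37) were called in all 8 settings and without any of 33 libraries. *Tyk2* (0.18 to 0.32) was called in 6 of 8 settings and 22 of 33 leave-one-out fits, *Socs1* (0.81 to 1.31) in 3 of 8 and 4 of 33, and *Socs3* in 0. *Socs1* reversed to −0.0885 without the LT-HSC sample Ang II *Apoe*-/- replicate 2, within −0.0885 to 1.35. *Il12rb1* in Ang II *Apoe*-/-*Il27ra*-/- against *Apoe*-/- of LT-HSC reversed to 0.93 without the same library, within −1.20 to 0.93, and *Il6ra* there ran from 0.04 to 0.84 on leaving out 1 library. *Irf1* in Ang II *Apoe*-/-*Il27ra*-/- against *Apoe*-/- of LT-HSC ran from −0.98 to −0.76 over the settings and was called in 5 of 9, not with the replicate block (−0.76), sex (−0.82), limma-voom (−0.98) or only the groups compared (−0.92). Where leaving out a library left 1 in a group, that library was taken to vary like the other groups. The cause of these changes was not tested.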
